A study of Rattus norvegicus with 94 samples.

Results

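The signals of 8 genes of the extracellular matrix were followed in rat liver after dosing with di(2-ethylhexyl) phthalate (DEHP), clofibrate or sodium valproate (VPA). The genes are Lox, Col1a1, Col1a2, Col3a1, Fn1, Bgn, Dcn and Sparc. All probe sets that the platform table assigned to one of these symbols were taken, which gave 26 of the 8799 probe sets and 8 of the 4737 gene symbols on the Affymetrix rat array. The choice used gene names and no measured value, although results of these data were known when the names were picked.

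Male SD rats, with no age or genetic change in the labels, received 20 g/kg DEHP in distilled water, 1000 mg/kg clofibrate in 0.9% saline or 2000 mg/kg VPA in distilled water, and livers were taken 4, 24, 48 or 168 h later. Animals given only distilled water (one set for DEHP, another for VPA) or 0.9% saline (for clofibrate) were taken at 48 and 168 h, so the 4 and 24 h groups have no vehicle group of their own time. Each of the 76 arrays used for tests held RNA of 1 animal, in 18 groups of 3, 4 or 5 arrays: 3 at 4 and 24 h, 5 in the vehicle and later DEHP and clofibrate groups, and 4 where VPA was given 48 or 168 h earlier. A further 18 arrays held RNA pooled from the animals of a group.

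The extracellular matrix of the liver is a thin network of fibrillar collagens, fibronectin and proteoglycans in the space between hepatocytes and the sinusoidal endothelium. Hepatic stellate cells, which store vitamin A at rest and turn into contractile myofibroblasts in injury, are known as the main source of fibrillar collagen there, whereas hepatocytes make and secrete much of the fibronectin. Lysyl oxidase cross-links collagen and elastin outside the cell, and its activity stiffens the matrix in fibrosis. DEHP and clofibrate are known in rodents as peroxisome proliferators that act through PPAR alpha, and VPA is an anticonvulsant fatty acid that inhibits histone deacetylases.

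Values are MAS 5.0 signals that the authors scaled to a target of 1500, and the trimmed mean of each array lay between 1502.1 and 1503.7. The clofibrate arrays had a higher 3'/5' signal ratio of the Gapdh and beta-actin control probe sets, a measure of shortened RNA or cDNA, at 1.38 ± 0.65 on the log2 scale (SD, n = 26), against 0.33 ± 0.14 in the DEHP arrays (n = 26) and 0.34 ± 0.14 in the VPA arrays (n = 24). Within the clofibrate set the ratio averaged 1.26 in the treated and 1.77 in the vehicle animals at 48 h. Replicate 1 of the clofibrate vehicle animals at 48 h stood apart, with the lowest ratio of its group (0.67) and with low Col1a1 and high Fn1 and Col3a1 signals. Its removal turned the sign of 4 uncalled clofibrate changes at 48 h (Col3a1 X70369_s_at, Fn1 M28259cds_at and U82612cds_g_at, and Sparc rc_AA892248_at) and added 3 calls, all of Col1a1.

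Genes of this kind are often read as stellate cell genes, and the markers of that cell type were only partly measured. Desmin, an intermediate filament protein of rat stellate cells, lay below the signal floor of 150 on all 30 vehicle arrays, with values of 37.3 to 89.2. Vimentin, found in most mesenchymal cells, had 356 to 1147 and lay above the floor on all 30. The smooth muscle actin Acta2 lay below the floor on 5 of the 30. Of the other listed markers on the array, Tpm1, Ngfr, Nes, Reln and S100a4 lay above the floor on all 30. Tpm2 and Crabp2 lay below it on all 30, and the rest on 1 (such as Myl9) to 26 (Thy1) of them. Detection of these markers was thus mixed. The 8 genes are described here as matrix genes and are not assigned to a cell type. In whole-liver RNA, fewer cells of a type and less RNA per cell cannot be told apart.

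A probe set was tested where its mean signal reached 500 in at least 1 group of a fit. Of the 26, 20 were tested in the DEHP set, 15 in the clofibrate set and 20 in the VPA set, and 21 in the fit of all 18 groups. The clofibrate fit held no probe set of Col1a2 or Dcn. Dim probe sets left out of every fit were 1 of Lox, 1 of Fn1 and 3 of Dcn. Changes are differences of mean log2 signal, treated minus vehicle, with signals under 150 set to 150, folds are the same differences on a linear scale (ratios of geometric means), and a call is a limma adjusted p under 0.05 over all probe sets of the fit. Treated animals of 48 and 168 h were compared with vehicle animals of their time, and those of 4 and 24 h with the average of the 48 h and 168 h vehicle means, each counted equally, so these comparisons share control arrays. P-values measure only the spread between these arrays.

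Matrix genes fell at 24 and 48 h after DEHP and VPA and, for fewer members, at 48 h after clofibrate, and at most 1 probe set was called at 4 or 168 h in a set. After DEHP, 12 of 20 probe sets (6 genes) fell at 24 h, where 17.5% of all tested probe sets fell, and 16 of 20 (7 genes, all but Dcn) fell at 48 h, against 21.1% of all. After clofibrate, 1 of 15 fell at 24 h, a share of 6.67% that lies below the 7.74% of all, and 4 of 15 (Lox, Bgn and 2 probe sets of Sparc) fell at 48 h, against 12.7% of all. After VPA, 7 of 20 (5 genes) fell at 24 h, against 15.6% of all, and 8 of 20 (5 genes) fell at 48 h, against 18.4% of all. No member rose in any comparison with vehicle. Of all probe sets, 15.1% and 12.8% rose after DEHP at 24 and 48 h, 5.75% and 7.27% after clofibrate, and 20.9% and 21.3% after VPA.

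The median log2 change of the tested members at 48 h was -0.917 for DEHP, where that of all tested probe sets was -0.105. It was -0.601 for clofibrate, with -0.125 over all, and -0.607 for VPA, with -0.012 over all. The treated and vehicle arrays did not overlap at all for 13 of 20 probe sets after DEHP at 48 h, for 3 of 15 after clofibrate and for 5 of 20 after VPA. The matching share over all tested probe sets was not computed, so whether these counts are unusual cannot be told. The VPA count of 7 at 24 h was 2 without treated replicate 2 and 4 without treated replicate 3, and it was 3 against the 48 h vehicle group alone and 1 when all 18 groups were fitted together. The DEHP count of 12 at 24 h was 7 in that last fit. The clofibrate count of 4 at 48 h was 7 without vehicle replicate 1, 2 without treated replicate 3, 8 after adjustment for the 3'/5' ratio and 12 when all 18 groups were fitted together. That last fit tested 21 members, against 15 in the clofibrate fit. Shares of all probe sets called under these settings are not given here, so a moved count is not read as a result about the members.

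**Figure D1:**
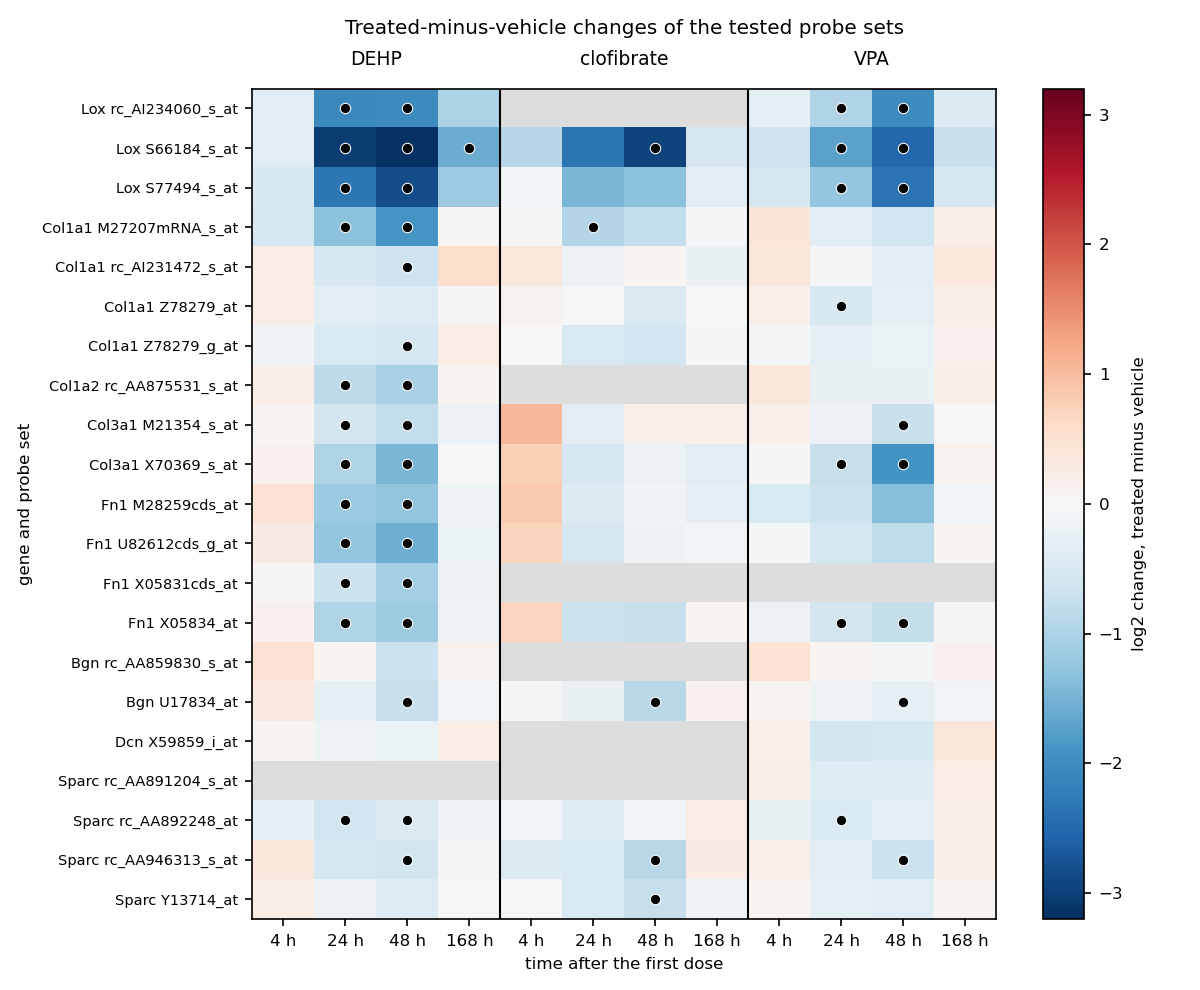
Log2 change of signal, treated minus vehicle, for each tested probe set (rows) at each time after dosing (columns) in the 3 compound sets. Dots mark limma adjusted p under 0.05 and grey cells were not tested; calls lie at 24 and 48 h, with the largest falls for Lox, and 1 call (Lox) at 168 h after DEHP.

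Lox encodes lysyl oxidase. It showed the largest falls of the 8 genes in all 3 compound sets at 48 h. Probe set S66184_s_at read 64.7, 108, 296, 106 and 67.9 in DEHP livers at 48 h, against 2090.1, 627, 4084, 1128 and 1453 in vehicle livers. All 5 treated animals lay below all 5 vehicle animals, and 4 of the 5 lay below the floor. The signal was at least 8.99-fold lower, a log2 change of -3.17 with signals held at the floor (SE 0.45, limma adjusted p = 5.91e-06). The fall was already present at 24 h, when the 3 DEHP animals read 223, 330.2 and 101. At 4 h they read 1889, 2038 and 775, inside the range of the vehicle animals.

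In VPA livers the same Lox probe set read 432, 632, 143 and 359 at 48 h, against 1041, 2345, 2945, 3581 and 1237 in vehicle livers. The groups did not overlap, and the signal was 5.74-fold lower with 1 of the 4 treated animals held at the floor (log2 change -2.52, SE 0.44, limma adjusted p = 6.77e-05). The fall at 24 h was 3.25-fold, with treated animals at 866, 489.9 and 784 (limma adjusted p = 0.00335). In clofibrate livers it read 278, 89.9, 123, 268 and 173 at 48 h, against 1399, 2347, 1198, 1977 and 1108 in vehicle livers. Again no treated animal reached a vehicle animal, and the log2 change was -2.97 with 2 of the 5 treated animals held at the floor (SE 0.84, limma adjusted p = 0.0149). At 24 h the clofibrate animals read 203, 549 and 44, which missed the threshold (limma adjusted p = 0.0846).

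Lox signals varied widely between vehicle animals. S66184_s_at had the largest spread of log2 signal within vehicle groups of all tested members in each set, with an SD of 1.04 for DEHP, 1.78 for clofibrate and 0.82 for VPA, where the median over the members was 0.29, 0.58 and 0.35. The clofibrate vehicle animals at 168 h fell far apart, at 101, 179.5, 3937, 3926 and 3447. Treated clofibrate animals at that time spanned 168 to 4268, so a change at 168 h could not be resolved (log2 change -0.54, 95% interval -2.28 to 1.2).

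The DEHP set kept a lower Lox signal at 168 h. Treated animals read 477, 601, 714, 1135 and 743 and vehicle animals 4880.4, 1422, 3816, 2157 and 767. The ranges overlapped, since the lowest vehicle animal lay within the treated range, and the 3.03-fold difference barely passed the threshold (log2 change -1.6, SE 0.45, limma adjusted p = 0.0491). It was the only one of 20 members called in that comparison, where 1.49% of all probe sets fell, and the call was lost in 7 of the 10 fits that left out 1 array (highest limma adjusted p = 0.156, without vehicle replicate 1). The remaining Lox probe sets of that comparison had log2 changes of -1.17 and -1.01 with limma adjusted p of 0.138 and 0.151.

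Further Lox probe sets also fell in the DEHP and VPA sets. S77494_s_at changed by -2.84 after DEHP and by -2.35 after VPA at 48 h, and rc_AI234060_s_at by -2.03 and -2.01, all 4 called by limma. In the clofibrate set S77494_s_at read 209, 144, 207, 139.8 and 291 in treated and 750.0, 664, 346, 400.1 and 389 in vehicle animals at 48 h, with no overlap, but missed the threshold (limma adjusted p = 0.0972). The fourth, rc_AA875582_at, stayed between 14.1 and 364 on all 76 arrays and was not tested.

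**Figure D2:**
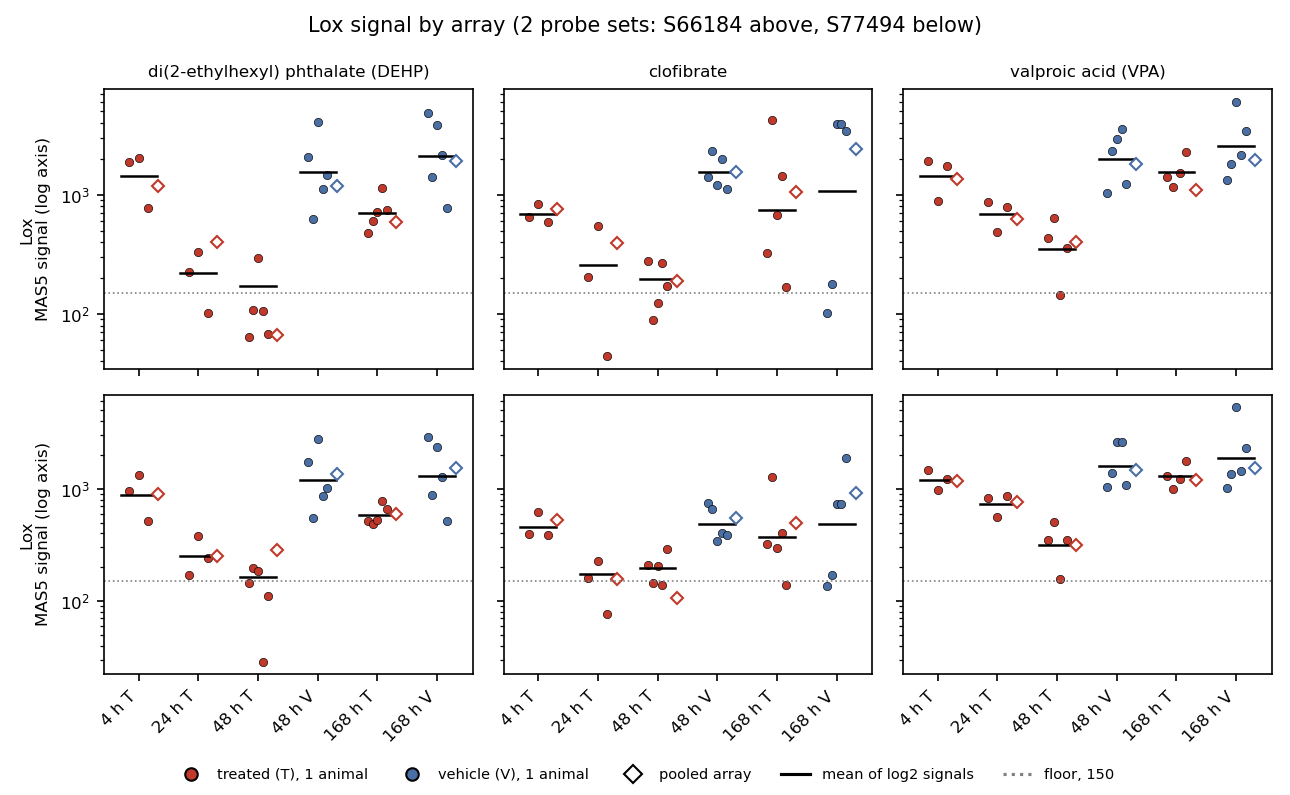
Lox signal (log axis) of each animal by group for probe sets S66184_s_at (upper row) and S77494_s_at (lower row), with red points for treated (T) and blue points for vehicle (V) animals, diamonds for pooled arrays, bars for the mean of the log2 signals and a dotted line at the floor of 150. Treated points at 48 h lie below every vehicle point of that time in all 6 panels, and the clofibrate vehicle animals at 168 h split widely.

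All 3 fibrillar collagen genes fell after DEHP. Col3a1 encodes the chain of type III collagen, a fine fibril protein of the liver. Probe set X70369_s_at read 1211, 1417, 2355, 1586 and 986 in DEHP livers at 48 h, against 3980.3, 3952, 3934, 3994 and 4125 in vehicle livers. The vehicle animals lay within a narrow band well above every treated animal, a fall of 2.76-fold (log2 change -1.47, SE 0.20, limma adjusted p = 2.79e-06). After VPA it read 828, 414, 1812 and 1247 in treated and 4154, 3522, 2923, 3742 and 3439.7 in vehicle animals. The groups were again apart, and the fall was 3.77-fold (log2 change -1.91, SE 0.27, limma adjusted p = 5.81e-06).

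The second Col3a1 probe set, M21354_s_at, fell less, by 1.74-fold after DEHP and by 1.63-fold after VPA at 48 h (limma adjusted p = 5.83e-06 and 0.0132, the second 0.0721 without treated replicate 2). In clofibrate livers Col3a1 showed no change that could be resolved. X70369_s_at read 399.7, 1506, 1398, 2145 and 423 in treated animals and 2799.8, 1724, 1041, 466 and 643 in vehicle animals at 48 h. The ranges overlapped, and the log2 change of -0.20 had a 95% interval of -1.33 to 0.94. Without vehicle replicate 1 it was 0.15 (limma adjusted p = 0.869). It was 1.00 within one scan day and -1.12 within the other.

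Col1a1 encodes the alpha 1 chain of type I collagen, the main fibril protein of scar tissue. Its M27207mRNA_s_at probe set read 299.9, 432, 358, 664 and 422 in DEHP livers at 48 h, against 2366, 1891, 1296, 1225 and 1309.6 in vehicle livers. The groups did not overlap, and the signal was 3.72-fold lower (log2 change -1.90, SE 0.33, limma adjusted p = 6.99e-05). Changes of the other Col1a1 probe sets after DEHP were smaller. Z78279_g_at changed by -0.57 and rc_AI231472_s_at by -0.66 on the log2 scale, both called, and their calls were lost in 2 and 7 of 10 fits that left out 1 array. Z78279_at had a change of -0.40, just outside the threshold (limma adjusted p = 0.0502).

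After clofibrate M27207mRNA_s_at read 210.1, 370.1 and 344 at 24 h, and the vehicle animals of 48 and 168 h ranged from 273 to 849.6. The ranges overlapped, and the call (log2 change -0.95, limma adjusted p = 0.0447) was lost in 10 of 13 fits that left out 1 array (highest limma adjusted p = 0.266, without treated replicate 1). At 48 h M27207mRNA_s_at read 344, 451, 196, 543 and 392.5 in clofibrate livers, against 273, 781, 703, 787 and 849.6 in vehicle livers, where the 273 is that of vehicle replicate 1. Its log2 change of -0.79 was not called (limma adjusted p = 0.0658). Without that array the change was -1.09 and 3 Col1a1 probe sets were called at 48 h, M27207mRNA_s_at (limma adjusted p = 0.00479), Z78279_at (0.0285) and Z78279_g_at (0.00627). After VPA no Col1a1 probe set was called at 48 h. At 24 h Z78279_at was called, with 569.7, 514 and 591 in treated animals and a log2 change of -0.52 (limma adjusted p = 0.00745, and 0.0529 without treated replicate 2).

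Col1a2 encodes the alpha 2 chain that joins 2 alpha 1 chains in type I collagen, and it had 1 probe set, rc_AA875531_s_at. It read 301, 511, 444, 348 and 269 in DEHP livers at 48 h, against 711, 828, 736, 817 and 657 in vehicle livers. No treated animal reached the vehicle range, and the fall was 2.05-fold (log2 change -1.04, SE 0.18, limma adjusted p = 5.61e-05). VPA livers read 613, 657, 733 and 534 at 48 h, against 775, 1007, 700.5, 705 and 612 in vehicle livers. Those ranges overlapped, and the log2 change was -0.25 with a 95% interval of -0.58 to 0.08. In the clofibrate set the probe set was too dim for the test, at 171, 283, 292, 299 and 128 in treated and 502, 538, 460.5, 440.3 and 368 in vehicle animals at 48 h. Every treated animal there lay below every vehicle animal, so the lack of a call is not a lack of change.

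Promoter sequences of RefSeq (build GRCr8) were at hand for 2 of the 8 genes, Col1a2 and Sparc, and are shown because both genes fell after DEHP. Each runs from 250 bases before to 50 bases after the annotated start, at chr4:33518307-33518606 on the plus strand for Col1a2 and at chr10:40038767-40039066 on the minus strand for Sparc. Capitals mark the letters CCAAT on either strand, those of a box bound by the factor NF-Y, and TATAAA on either strand, those of a TATA box. They are matches of letters only, and their function at these positions was not tested.
Col1a2: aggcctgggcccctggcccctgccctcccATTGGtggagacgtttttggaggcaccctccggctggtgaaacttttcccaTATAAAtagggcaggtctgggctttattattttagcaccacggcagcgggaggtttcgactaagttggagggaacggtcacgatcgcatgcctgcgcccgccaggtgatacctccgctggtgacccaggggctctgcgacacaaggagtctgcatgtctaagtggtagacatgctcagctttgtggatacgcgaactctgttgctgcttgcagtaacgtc
Sparc: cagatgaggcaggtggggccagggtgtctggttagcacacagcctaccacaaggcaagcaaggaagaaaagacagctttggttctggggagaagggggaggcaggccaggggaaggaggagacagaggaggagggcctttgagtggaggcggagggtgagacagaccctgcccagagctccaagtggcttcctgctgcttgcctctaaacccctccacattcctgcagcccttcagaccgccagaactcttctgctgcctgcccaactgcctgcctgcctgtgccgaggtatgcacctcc
The Col1a2 window held 1 CCAAT, on the opposite strand, starting 221 bases before the start, and 1 TATAAA, 170 bases before it. The Sparc window held neither. GGGCGG, the core bound by Sp1, was in neither window on either strand. The same held for AGGTCA, the unit of which binding sites of PPAR and related receptors are built. Of 33469 promoters of this length, 37.5% held CCAAT, 14.2% TATAAA, 33.1% GGGCGG and 16.2% AGGTCA. Lox, Col1a1, Col3a1, Fn1, Bgn and Dcn are named without a sequence.

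Fn1 encodes fibronectin, a glycoprotein of plasma and matrix. It fell without overlap after DEHP and after VPA. Probe set X05834_at read 12274, 12716, 17180.2, 12254 and 8648 in DEHP livers at 48 h, against 25412, 25607, 29907, 28070.1 and 26784 in vehicle livers. The groups were far apart, a fall of 2.2-fold (log2 change -1.14, SE 0.15, limma adjusted p = 2.1e-06). In VPA livers it read 17451, 16906, 16759 and 17493, against 27441, 31345, 27743, 28930.0 and 30056 in vehicle livers. Spread within both groups was small, and the fall was 1.7-fold (log2 change -0.76, SE 0.10, limma adjusted p = 1.94e-06).

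At 24 h X05834_at had fallen by 1.93-fold after DEHP and by 1.5-fold after VPA, without overlap in either set (limma adjusted p = 4.56e-05 and 6.52e-05). In clofibrate livers it read 7725, 9532, 8715, 13577 and 3671 at 48 h, against 24852, 17206, 12483, 6691 and 11304 in vehicle livers. The ranges overlapped and the log2 change of -0.73 was not called (limma adjusted p = 0.14). The value was 0.08 within one scan day and -1.42 within the other. The 3 dimmer tested Fn1 probe sets also fell after DEHP at 48 h, with changes of -1.27, -1.56 and -1.09 on the log2 scale, and at 24 h the last of them lay at the threshold (limma adjusted p of 0.05 after rounding), with the call lost in 11 of 13 fits that left out 1 array. After VPA the 2 that were tested missed the threshold at 48 h, with limma adjusted p of 0.059 for M28259cds_at and 0.103 for U82612cds_g_at. U82612cds_at stayed between 113 and 638 on all 76 individual arrays and was not tested.

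**Figure D3:**
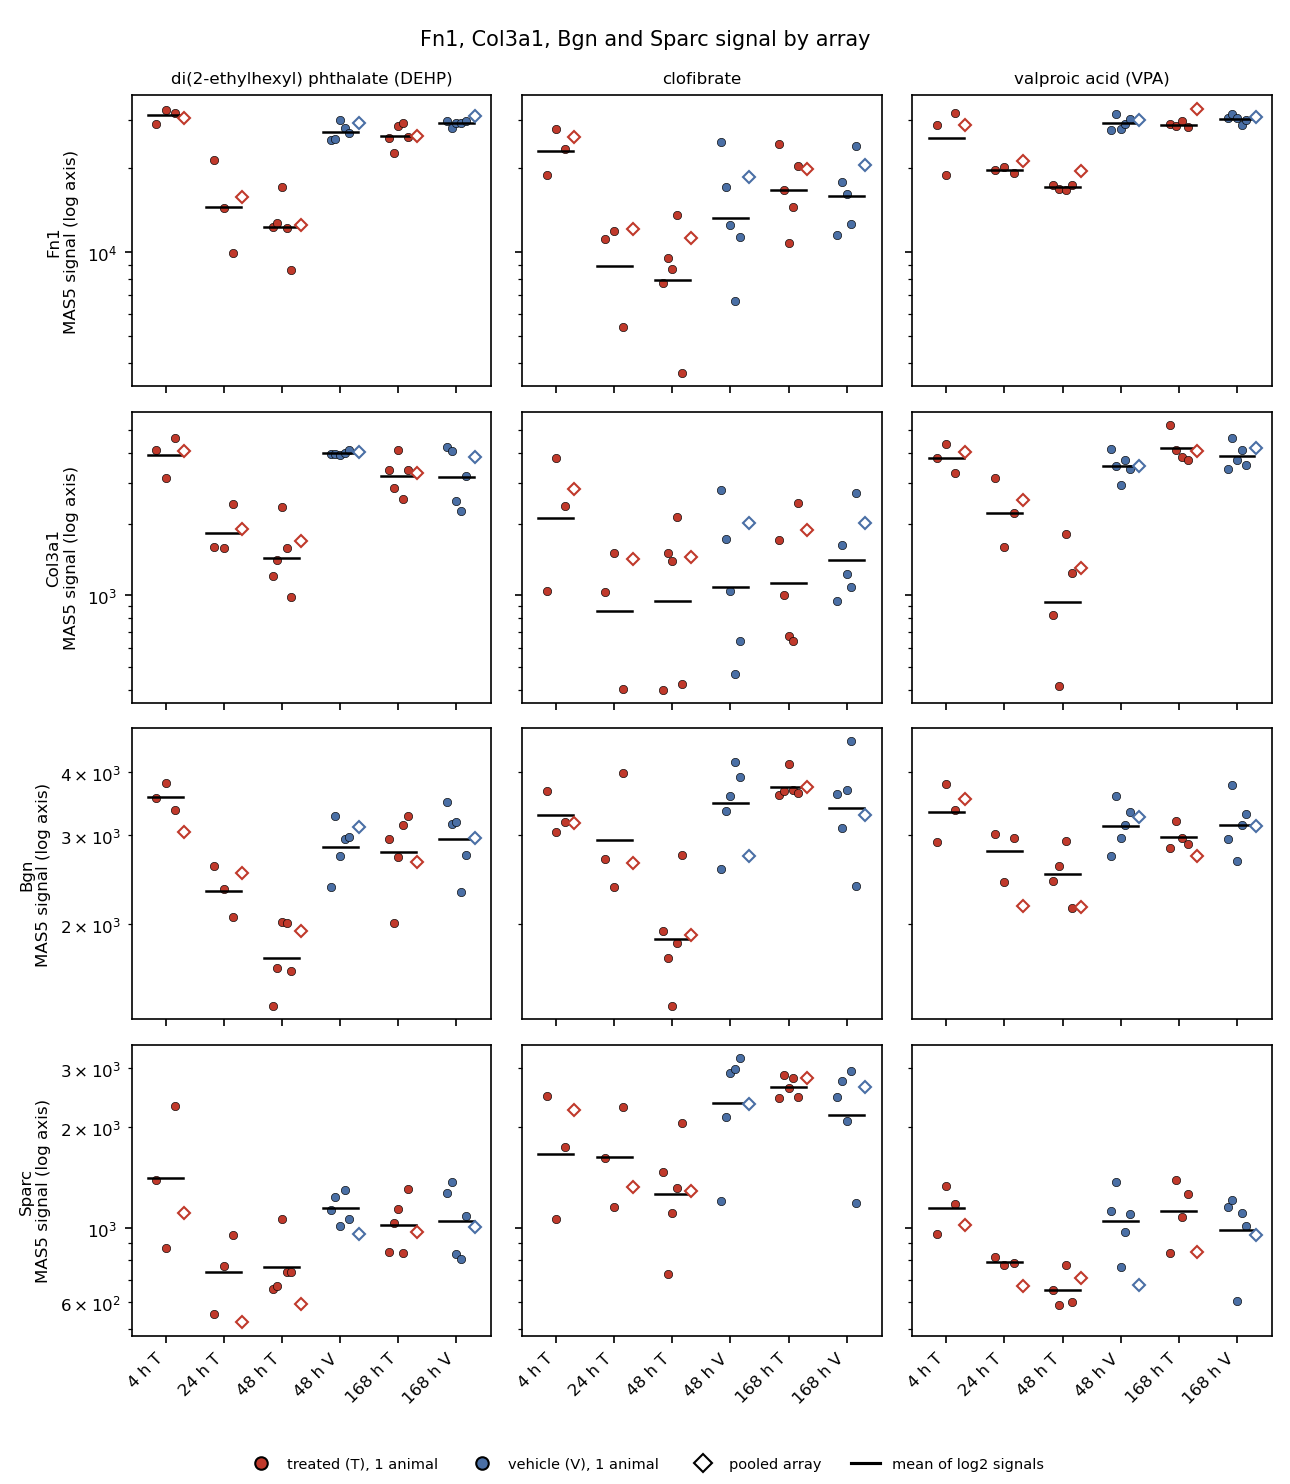
Signal (log axis) of each animal by group for Fn1 (X05834_at), Col3a1 (X70369_s_at), Bgn (U17834_at) and Sparc (rc_AA946313_s_at), drawn with red points for treated (T) animals, blue points for vehicle (V) animals, diamonds for pooled arrays and bars for the mean of the log2 signals. Fn1 and Col3a1 fell without overlap at 48 h after DEHP and VPA, and the clofibrate arrays scattered more for both genes.

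Among the small proteoglycans, biglycan fell and decorin did not pass the test. Bgn encodes biglycan, which binds collagen fibrils and TGF-beta. U17834_at read 1377, 1633, 2022, 2004 and 1613 in DEHP livers at 48 h, against 2364, 3269, 2729, 2948 and 2972 in vehicle livers. The groups did not overlap (fall of 1.66-fold, log2 change -0.73, SE 0.14, limma adjusted p = 0.000182). Clofibrate livers read 1940.1, 1709, 1374, 1834 and 2744, against 2573, 3354, 3594, 4186 and 3914 in vehicle livers. Here 1 treated animal lay inside the vehicle range only because of vehicle replicate 1 (2573), and the log2 change was -0.89 (SE 0.19, limma adjusted p = 0.00166), with -1.08 and -0.71 within the 2 scan days. Without vehicle replicate 1 the groups did not overlap (limma adjusted p = 0.000814).

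After VPA U17834_at fell by 1.25-fold at 48 h, with overlap, and the call (limma adjusted p = 0.0367) was lost in 6 of 9 fits that left out 1 array (highest limma adjusted p = 0.137, without treated replicate 4). The second Bgn probe set, rc_AA859830_s_at, was not tested in the clofibrate set and was not called in the DEHP or VPA set. Its log2 changes at 48 h were -0.69 after DEHP, where the groups did not overlap, and -0.05 after VPA. Dcn encodes decorin, a related proteoglycan that limits fibril growth. Its 1 tested probe set, X59859_i_at, read 544, 669, 972, 657 and 755 in DEHP and 861, 516, 873, 928 and 1038 in vehicle livers at 48 h. The ranges overlapped, and the log2 change of -0.22 had a 95% interval of -0.64 to 0.20. After VPA it was -0.57, with an interval of -1.2 to 0.05.

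Sparc encodes osteonectin, a collagen-binding glycoprotein that shapes fibril assembly. Which of its 4 probe sets passed the test differed between the compound sets. After clofibrate at 48 h Y13714_at read 962, 928, 500.1, 873 and 447, against 1366, 1023, 1187, 1114 and 1207 in vehicle livers. No treated animal reached the vehicle range, a fall of 1.67-fold (log2 change -0.74, SE 0.22, limma adjusted p = 0.0214). The call was lost in 2 of 10 fits that left out 1 array (limma adjusted p = 0.0734 without treated replicate 3). In DEHP and VPA livers Y13714_at missed the threshold at 48 h, with log2 changes of -0.42 and -0.35.

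Sparc probe set rc_AA946313_s_at fell in all 3 sets at 48 h, by 1.5-fold after DEHP, by 1.86-fold after clofibrate and by 1.61-fold after VPA (limma adjusted p = 0.0356, 0.0378 and 0.00638). VPA livers read 650.5, 589.7, 777 and 602, against 1124, 1369, 766, 972 and 1096 in vehicle livers, with 1 treated animal inside the vehicle range. Without vehicle replicate 1 its log2 change after clofibrate was -1.14, against -0.90 with it. Leaving out 1 array ended its call in 7 of 10 fits for DEHP, in 6 of 10 for clofibrate and in 0 of 9 for VPA. Probe set rc_AA892248_at read 13401 to 21980.5 in DEHP and 19967 to 30398 in vehicle livers at 48 h, and it fell by 1.38-fold (limma adjusted p = 0.0177, and 0.0653 without treated replicate 3). Its log2 change was -0.08 after clofibrate (0.02 without vehicle replicate 1) and -0.32 after VPA, neither called. rc_AA891204_s_at was tested only in the VPA set and not called there.

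Whether the falls at 48 h were smaller at 168 h was tested as the difference of the treated-minus-vehicle changes at these times. For DEHP this difference was positive for 9 of 20 members at a limma adjusted p under 0.05, against 7.97% of all probe sets. They were 3 probe sets of Col1a1, that of Col1a2, 2 of Col3a1, 2 of Fn1 and 1 of Bgn, and the call of Col1a1 Z78279_g_at was lost in 14 of 20 fits that left out 1 array. Col3a1 X70369_s_at had a difference of 1.49 (SE 0.28, limma adjusted p = 0.000945) and read 3375, 2832, 4114, 2562 and 3375 in treated animals at 168 h, against 4235, 4068, 2514, 2281 and 3188 in vehicle animals. The 168 h ranges of that gene overlapped. The 3 Lox probe sets missed the threshold, with differences of 1.57, 1.67 and 1.02 and limma adjusted p of 0.109, 0.0538 and 0.203.

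For VPA the difference was positive for 7 of 20 members, against 10.8% of all probe sets: 3 of Lox, and 1 each of Col1a1, Col3a1, Fn1 and Sparc. The Col1a1 probe set, rc_AI231472_s_at, had no called fall at 48 h, with log2 changes of -0.33 at 48 h and 0.33 at 168 h. Col3a1 X70369_s_at differed by 2.03 (SE 0.39, limma adjusted p = 0.000446), and Fn1 X05834_at by 0.69 (SE 0.14, limma adjusted p = 0.000871). The calls of Lox S66184_s_at and Col1a1 rc_AI231472_s_at were lost in 11 of 18 fits that left out 1 array, and without treated replicate 3 of 48 h 4 members were called. For clofibrate only Bgn U17834_at passed, 1 of 15, against 2.93% of all, with a difference of 1.03 (SE 0.27, limma adjusted p = 0.0199). Without treated replicate 5 or vehicle replicate 1 of 48 h the count was 2, and without vehicle replicate 1 the added call was Sparc rc_AA946313_s_at, with a difference of 1.41 (limma adjusted p = 0.0301). At 168 h itself no member was called after clofibrate or VPA, where limma called 0% of all probe sets and 0 members had an unadjusted p under 0.05. Such an unadjusted p was found for 78 of all 3616 probe sets after clofibrate and 326 of 4269 after VPA.

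At 4 h no member was called by limma in any set. All probe sets were called at 2.88% for DEHP, 3.43% for clofibrate and 21.2% for VPA, and the members with an unadjusted p under 0.05 were 1 (Bgn U17834_at, higher), 1 (Col3a1 M21354_s_at, higher) and 2 (Col1a1 rc_AI231472_s_at and Col1a2, higher). The members tested were 20, 15 and 20. At the unadjusted threshold stood 605 of all 4092 probe sets for DEHP, 468 of 3616 for clofibrate and 1442 of 4269 for VPA. Fn1 X05834_at read 18969.8, 27782 and 23597 in clofibrate livers at 4 h, and its log2 change of 0.68 had a limma adjusted p of 0.432. The VPA count at 4 h was 1 without treated replicate 3 or without vehicle replicate 2 of 48 h.

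Differences between compounds were tested at 24 and 48 h in the fit of all 76 arrays, for the 21 members tested there, in 6 comparisons. The doses differ, so these compare the treatments as given. Col3a1 X70369_s_at alone was called, with a difference of -1.72 on the log2 scale at 48 h, lower after VPA than after clofibrate (SE 0.57, limma adjusted p = 0.0365), 1 of 21 members against 4.09% of all probe sets. That call was lost in 10 of 19 fits that left out 1 array (highest limma adjusted p = 0.15, without VPA treated replicate 2), and without clofibrate vehicle replicate 1 the difference was -2.06, with Bgn U17834_at called as well at 0.68 (limma adjusted p = 0.0256). None of the 21 was called by limma for VPA against DEHP at 48 h (all probe sets 7.97%, 2 members with an unadjusted p under 0.05) or at 24 h (4.62%, 3 members). None was called for clofibrate against DEHP at 48 h (2.07%, 5 members) or at 24 h (2.2%, 0 members), or for VPA against clofibrate at 24 h (8.86%, 1 member). The percentages are of adjusted p and the member counts of unadjusted p. At the unadjusted threshold stood 888 and 709 of all 4503 probe sets for VPA against DEHP at 48 and 24 h. For clofibrate against DEHP the numbers were 637 and 591, and for VPA against clofibrate at 24 h 1051.

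These missed thresholds leave wide intervals. For Col1a1 M27207mRNA_s_at the change at 48 h was 1.26 higher after VPA than after DEHP (95% interval 0.31 to 2.20, limma adjusted p = 0.0934). For Col1a2 it was 0.79 higher (95% interval 0.25 to 1.33, limma adjusted p = 0.0578). For Lox S66184_s_at the change after clofibrate minus that after DEHP at 48 h was 0.20 (95% interval -1.60 to 2.00). The VPA against DEHP count at 48 h was 2 without VPA vehicle replicate 2 and 1 without VPA treated replicate 4 or DEHP treated replicate 2 or 3. Vehicle animals of 168 h differed from those of 48 h in 0 of 21 members by limma, with 0% of all probe sets called and 0 members at an unadjusted p under 0.05. Of all 4503 probe sets, 150 had such an unadjusted p.

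Pooled arrays differed in the direction of the individual animals for most called members. At 48 h, of the probe sets called in individual animals, the pooled treated and vehicle arrays differed in the same direction for 16 of 16 after DEHP, 4 of 4 after clofibrate and 7 of 8 after VPA. The exception was Sparc rc_AA946313_s_at after VPA, at 0.07 in the pools and -0.69 in the individual animals on the log2 scale. Lox S66184_s_at differed by -2.98 in the DEHP pools, -3.03 in the clofibrate pools and -2.16 in the VPA pools at 48 h. A pool is 1 array, so its change has no replicate error.

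**Figure D4:**
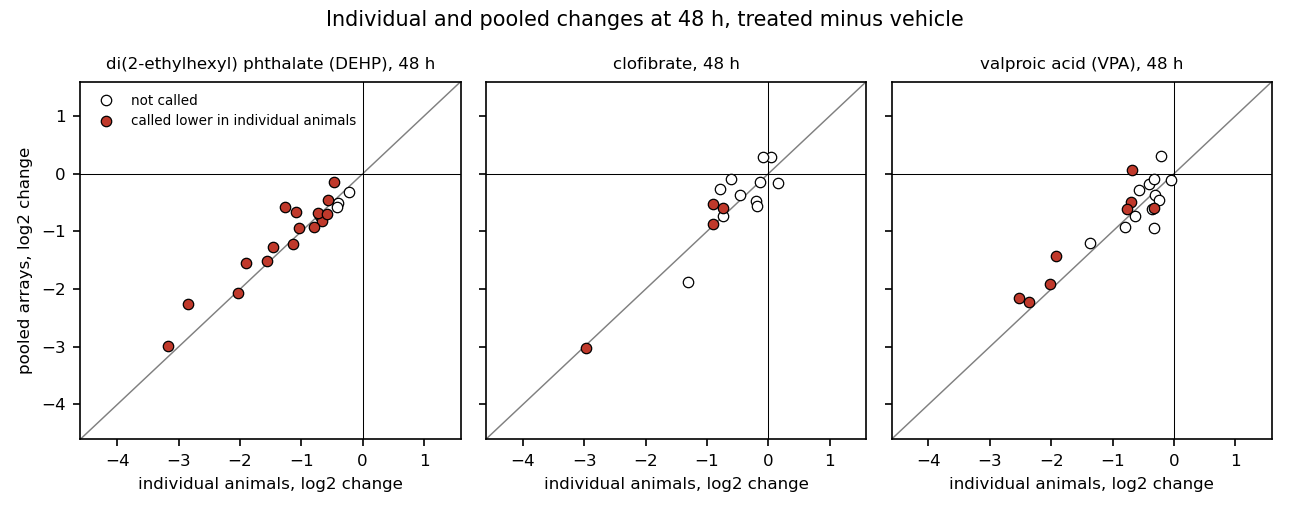
Log2 change at 48 h, treated minus vehicle, on the pooled arrays (vertical axis) against the mean change in individual animals (horizontal axis) for each tested member, with red points for probe sets called lower in individual animals and the grey line at equality. Called points lie below 0 on both axes except Sparc rc_AA946313_s_at after VPA, at 0.07 in the pools.

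Where an array file gave the scan day, the falls were also compared within days shared by treated and vehicle animals. All 16 members called after DEHP at 48 h were lower in both shared days, as were the 4 called after clofibrate and the 8 after VPA. Lox S66184_s_at changed by -3.95 and -2.49 within the 2 days after DEHP, by -3.43 and -2.69 after clofibrate and by -1.78 and -2.49 after VPA. A shared day held 1 to 3 animals of an arm. These arrays are part of those that gave the calls, so the shared direction is not an independent test.

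Other genes of the matrix were examined as lists, at 1 probe set per gene, to be read beside all tested probe sets at 48 h, of which 21.1% fell after DEHP, 12.7% after clofibrate and 18.4% after VPA, with medians of -0.105, -0.125 and -0.012. Of 12 tested genes of other matrix glycoproteins and proteoglycans, 8 fell and 0 rose after DEHP at 48 h, with a list median of -0.67 on the log2 scale. After clofibrate 6 of 10 fell and 0 rose (median -0.87), and after VPA 5 of 11 fell and 1 rose (median -0.25). Vitronectin (Vtn), an adhesion protein that hepatocytes secrete into plasma, fell by 1.92-fold after DEHP, 1.97-fold after clofibrate and 1.98-fold after VPA. The syndecans Sdc2 and Sdc4, cell-surface heparan sulfate proteoglycans, fell by 2.06-fold and 2.25-fold after DEHP and by 1.76-fold and 2.84-fold after VPA, and Sdc1 and Sdc2 by 2.11-fold and 1.70-fold after clofibrate. Elastin (Eln), a substrate of lysyl oxidase, fell by 1.66-fold after VPA and by 2.72-fold after clofibrate, where 1 treated animal was held at the floor.

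Few genes of the collagen list outside the members passed the test. None of its 6 tested genes passed after DEHP at 48 h (median -0.06). After clofibrate 2 of 7 fell (median -0.47) and after VPA 1 of 6 (median -0.22), and none rose. P4hb, a subunit of prolyl hydroxylase and a protein disulfide isomerase, fell by 1.78-fold after clofibrate and 1.22-fold after VPA, and the collagen-modifying enzyme Plod3 by 1.34-fold after clofibrate. Of 6 tested matrix proteases and inhibitors, 4 fell after DEHP at 48 h, among them Timp2 (1.77-fold), an inhibitor of metalloproteinases, and Mmp14 (1.5-fold), a membrane metalloproteinase. After clofibrate 2 of 5 fell and after VPA 1 of 6, among them Timp2 by 1.42-fold after clofibrate and 1.39-fold after VPA. Of 8 tested genes of TGF-beta and PDGF signalling, 3 fell after DEHP at 48 h, where 21.1% of all probe sets fell: the collagen receptor Itga1 (1.71-fold), the PDGF receptor Pdgfra (1.54-fold) and the ligand Tgfb2 (1.94-fold). Itga1 and Pdgfra also fell after clofibrate, 2 of 4 tested, by 2.27-fold and 1.62-fold, and 0 of 7 fell after VPA. All calls in these lists are limma adjusted p under 0.05 over all probe sets.

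Markers of liver cell types were counted beside the same shares of all probe sets, 21.1% lower after DEHP, 12.7% after clofibrate and 18.4% after VPA at 48 h. Of 7 tested stellate cell and myofibroblast markers, 2 fell after DEHP at 48 h (Myl9, 2.91-fold, and Cspg4, 2.04-fold with signals held at the floor) and 1 rose (Ngfr, 1.44-fold). After clofibrate 1 of 7 fell (Myl9, 1.75-fold) and 1 rose (Ngfr, 1.6-fold), and after VPA 1 of 6 fell (Reln, 1.52-fold). These shares of fallen markers lie near those of all probe sets. Their summed signal over the 18 genes on the array spanned 14354 to 17515 in DEHP and 14309 to 16698 in vehicle livers, 11386 to 16585 in clofibrate and 13505 to 17563 in vehicle livers, and 13047 to 17584 in VPA and 16069 to 17561 in vehicle livers at 48 h. Tpm1 (median 5757 over the 30 vehicle arrays) and Ngfr (3583) were the brightest of these genes, while desmin (57.5) and Acta2 (279) were dim. The sum therefore follows mainly the bright genes and says little about the dim ones. Desmin, Tpm2 and Crabp2 of this list lay below the floor on all 30 vehicle arrays, and no gene of it was at 0 on all arrays of a group.

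Of Kupffer cell and leukocyte markers, 3 of 6 fell after DEHP at 48 h, 3 of 6 after clofibrate and 2 of 7 after VPA, among them the complement chain C1qb by 1.95-fold after DEHP and 1.83-fold after clofibrate. Their sums were 8523 to 13301 in DEHP and 11565 to 19880 in vehicle livers, 9317 to 14394 in clofibrate and 14339 to 23153 in vehicle livers, and 8765 to 12092 in VPA and 11705 to 18186 in vehicle livers. Endothelial markers fell for 2 of 6 genes after DEHP (Kdr, 2.24-fold, and Icam1, 1.47-fold), 1 of 3 after clofibrate (Lyve1, 1.62-fold) and 0 of 6 after VPA. The endothelial sums were 4047 to 5036 in DEHP and 5471 to 6441 in vehicle livers, 3041 to 3639 in clofibrate and 3614 to 5155 in vehicle livers, and 4330 to 5799 in VPA and 5013 to 6265 in vehicle livers. Hepatocyte markers also fell, 5 of 9 after DEHP, 4 of 9 after clofibrate and 6 of 9 after VPA, with sums of 345153 to 427623 in DEHP and 456316 to 524207 in vehicle livers. The hepatocyte sums were 365283 to 447712 in clofibrate and 490998 to 632066 in vehicle livers, and 219351 to 301108 in VPA and 322722 to 405877 in vehicle livers. Cholangiocyte markers were called for 0 of 3 genes after DEHP, 0 of 1 after clofibrate and 1 of 3 after VPA (Epcam, 1.62-fold higher), and of erythroid markers 2 of 5 fell and 1 rose after DEHP, 2 of 4 fell after clofibrate and 2 of 5 after VPA. The fallen genes were the globins Hbb and Hbb-b1 (3.52-fold and 3.49-fold after VPA), and the one that rose was the transferrin receptor Tfrc (2.34-fold). The part of any of these cell types in the matrix results was not tested.

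The genes whose pattern over the 18 group means lay closest to each member were found by Pearson r after centring on the vehicle groups of each compound set. For Lox these were Sdc2 (r = 0.961), the tyrosine kinase Syk (0.958) and the complement protease C1r (0.955). For Fn1 they were the plasma glutamate carboxypeptidase Cpq (0.967), the vitamin C enzyme Gulo (0.957) and the growth factor Igf1 (0.953). For Col3a1 they were the protease inhibitor Mug1 (0.967), the lectin Mbl2 (0.936) and the male-specific Cyp2c11 (0.93). For Bgn the closest was the apolipoprotein Apoc3 (0.937), for Col1a1 Tmsb4x (0.919), for Col1a2 the properdin gene Cfp (0.921), for Dcn Nf1 (0.906) and for Sparc, by rc_AA892248_at, the nuclease Dnase1l3 (0.925). Between members, Fn1 X05834_at had an r of 0.841 with Lox S66184_s_at, and Col3a1 X70369_s_at 0.743. Group means share compound, vehicle arrays and scaling, so these values describe the pattern only.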

How the data were processed

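The study measured liver RNA of male SD rats on Affymetrix rat expression arrays, 1 animal per array for 76 arrays and pooled RNA for 18. Per the labels' protocols, 10 ug of total RNA isolated with RNA STAT-60 was used, and the deposited intensity values are the authors' MAS 5.0 signals, each array brought to a target of 1500. Signals are on a linear scale with 1 value per probe set, and no control-spot or background step was repeated. Probe sets were named by the platform table.

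Signals under 150 were set to 150 and log2 transformed. Probe sets with a group mean of at least 500 in 1 or more groups entered a limma fit (version 3.58.1, R 4.3.3; lmFit and eBayes with an intensity trend), 1 fit per compound set with 3616 (clofibrate), 4092 (DEHP) and 4269 (VPA) probe sets, and 1 fit of all 18 groups with 4503 for differences between compounds and between vehicle times. P-values were adjusted by Benjamini-Hochberg over all probe sets of a fit. The number of arrays limits the precision. Genes named outside the members were the called genes of the lists, up to 4 a list and comparison by adjusted p, and the 3 closest patterns of each member. Python 3.11.15 with matplotlib 3.10.9 drew the plots.

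The members and lists were chosen with earlier results of these data known. Deviations of same-numbered treated and vehicle animals correlated over 0.1 in 0 to 2 of 4 or 5 pairs, and no pairing was used. In the clofibrate set single pairs ranged widely, from -0.455 to 0.549 at 48 h and from -0.278 to 0.496 at 168 h. Counts with a replicate block are given below. Alternatives were other floors, filters, scalings, covariates, control groups and left-out arrays.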

Additional observations from a re-analysis of the deposited data

Results flagged for a closer look

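Of 220 combinations of a probe set and a group of 4 or 5 animals, 20 held 1 array far from the others by Dixon's test at the 95% level, where chance gives about 1 in 20. Replicate 1 of the clofibrate vehicle animals at 48 h, with a 3'/5' log2 ratio of 0.67, accounted for 4 of them. It read 273 for Col1a1 M27207mRNA_s_at (others 703 to 849.6), 389.6 for Col1a1 Z78279_g_at (others 862 to 1157), 1334 for Col3a1 M21354_s_at (others 400.4 to 533) and 2576 for Fn1 U82612cds_g_at (others 413 to 555). Replicate 5 of the clofibrate vehicle animals at 168 h, with a ratio of 0.52, read 3056 for Fn1 U82612cds_g_at (others 403 to 706) and 505 for M28259cds_at (others up to 162). The part of RNA quality in these values was not tested.

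Other clofibrate animals far from their group at 168 h were vehicle replicate 2 for Col1a1 Z78279_at (440.0), treated replicate 1 for Fn1 M28259cds_at (179.5), treated replicate 3 for Bgn U17834_at (4152) and treated replicate 4 for Sparc Y13714_at (851). Replicate 3 of the DEHP-treated animals at 48 h was high for Lox S66184_s_at (296, others 64.7 to 108) and Sparc rc_AA946313_s_at (1063, others 658 to 740.3) and low for Sparc rc_AA892248_at (13401, others 19259 to 21980.5). DEHP vehicle replicate 3 of 48 h read 2394 for Col3a1 M21354_s_at, and replicate 2 read 516 for Dcn X59859_i_at. DEHP vehicle replicate 5 of 168 h read 664 for Fn1 X05831cds_at and 142 for Bgn rc_AA859830_s_at (others 586 to 963). In the VPA set at 168 h, treated replicate 1 read 1119 for Bgn rc_AA859830_s_at, and vehicle replicate 3 read 300.3 for Sparc rc_AA891204_s_at and 605 for Sparc rc_AA946313_s_at (others 1010.3 to 1210).

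The treated-minus-vehicle change differed between 168 and 48 h, by limma's test of the difference, for 17 combinations of a probe set and a compound, always upward. Some probe sets are counted for more than 1 compound. For DEHP the differences on the log2 scale were 1.94 for Col1a1 M27207mRNA_s_at, 1.21 for rc_AI231472_s_at and 0.81 for Z78279_g_at, 1.09 for Col1a2, 0.62 for Col3a1 M21354_s_at and 1.49 for X70369_s_at. They were 1.36 for Fn1 U82612cds_g_at, 0.99 for X05834_at and 0.64 for Bgn U17834_at. For VPA they were 1.57, 1.8 and 1.8 for Lox rc_AI234060_s_at, S66184_s_at and S77494_s_at, 0.66 for Col1a1 rc_AI231472_s_at, 2.03 for Col3a1 X70369_s_at, 0.69 for Fn1 X05834_at and 0.87 for Sparc rc_AA946313_s_at. For clofibrate it was 1.03 for Bgn U17834_at. Between compounds, Col3a1 X70369_s_at differed by -1.72 for VPA against clofibrate at 48 h.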

How the results depend on the processing

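No direction reversed in 458 values over 35 called results of 1 chosen probe set per gene, of which 411 kept the call and 47 missed the threshold, and 50 of 288 counts of called members moved by more than 1.5 times; for counts that moved, the cause was not tested. DEHP at 168 h (1 member) had 0 with a floor of 50, no filter, median centring, quantile normalization, no intensity trend, the replicate block, the 3'/5' covariate, all 18 groups in 1 fit or only the groups compared. Clofibrate at 24 h (1) had 0 with no filter, a filter of 1000, median centring, quantile normalization, the scan day or replicate block, the 168 h vehicle group alone, only the groups compared, or without arrays given to 1 decimal. It had 3 with the 3'/5' covariate, 4 with array weights and 5 with all 18 groups in 1 fit. Clofibrate at 48 h (4) had 2 with median centring or without arrays given to 1 decimal, 7 with array weights, 8 with the 3'/5' covariate and 12 with all 18 groups. The fit of all 18 groups tested 21 members, against 15 in the clofibrate fit, and shares of all probe sets under these settings are not given here. Clofibrate at 4 h (0) had 3 with array weights and 1 with all 18 groups, and its 168 against 48 h difference (1) had 0 with median centring and 3 with the covariate or weights. DEHP at 24 h (12) had 7 with all 18 groups, and its 168 against 48 h difference (9) had 5 with no filter. VPA at 24 h (7) had 4 with no filter, 1 with all 18 groups and 3 with the 48 h vehicle group alone. Its 168 against 48 h difference (7) had 3 with no filter and 4 with median centring, and VPA at 4 h (0) had 1 with median centring or the covariate.

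Between compounds, VPA against clofibrate at 48 h (1) had 0 with no filter or without arrays given to 1 decimal, 2 with the covariate and 3 with array weights. VPA against DEHP at 48 h (0) had 2 with a floor of 300 or array weights and 1 with the covariate. Clofibrate against DEHP at 48 h (0) had 1 with a floor of 300 and 4 with array weights, and VPA against DEHP at 24 h (0) had 1 with a floor of 300. With the replicate block, 11 and 15 members were called in either direction after DEHP at 24 and 48 h. The counts were 4 after clofibrate at 48 h, and 5 and 7 after VPA at 24 and 48 h. Counts without 1 array ranged from 10 to 13 and 12 to 16 after DEHP at 24 and 48 h, 0 to 2 at 168 h, and 0 to 2 and 2 to 7 after clofibrate at 24 and 48 h. They ranged from 2 to 8 and 7 to 9 after VPA at 24 and 48 h, and 0 to 1 at 4 h. The 168 against 48 h counts ranged from 7 to 10 for DEHP, 1 to 2 for clofibrate and 4 to 8 for VPA, and the compound counts at 48 h from 0 to 2 for VPA against clofibrate or DEHP.

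Signals near the floor of 150 limit the size of the Lox falls, since 4 of 5 DEHP animals read below it at 48 h. The clofibrate set had the widest spread and the highest 3'/5' ratio.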
